A study of Mus musculus with 6 samples.

Results

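Desmosomes are the spot-like junctions that rivet epithelial cells to one another and tie the junction to the keratin filaments inside the cell. Desmosomal cadherins (desmogleins and desmocollins) span the membrane, armadillo proteins (plakoglobin and the plakophilins) bind their tails, and desmoplakin, a plakin, links this plaque to keratin. Envoplakin and periplakin are plakins of the same superfamily that associate with desmosomes and are laid down early in the cornified envelope of stratified epithelia, and uroplakin 1B is a tetraspanin known from the apical plaques of urothelium. In a developing salivary gland such junctions join the cells of the epithelial buds and ducts, which are surrounded by mesenchyme. Which cells each of the genes below was read from was not tested.

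The genes described are Evpl, Ppl, Dsp, Jup, Pkp1, Pkp2, Pkp3, Dsg2, Dsc2 and Upk1b, taken by symbol. All 10 are among the 23260 genes of the count files and all 10 are among the 13610 genes that passed edgeR's filter on low counts. Evpl and Upk1b had been singled out for their difference between AMD3100-treated and control glands in these same libraries, and the other 8 were added for their place in the junction with that result known. The fitted changes of the 10 are therefore given as a description, with no p-value printed. Where one of the 10 is said to pass or miss a call rule that uses a p-value, this describes the fit. It is not a test of that gene.

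The libraries come from submandibular glands of ICR mouse embryos at embryonic day 14 (eSMGs), kept in culture for 6 h. The control group had medium alone, and the other group had 50 µM AMD3100, an antagonist of the chemokine receptor CXCR4. Each group has 3 libraries, and each library pooled up to 10 whole glands, so that epithelium, mesenchyme, nerve, vessel and blood cells were read together. Nothing in the labels says that the tubes of a group came from separate litters, and the spread between replicates may be partly technical. The paper's statistical methods speak of independent experiments in triplicate for its results in general, without mention of litters. Between 9051595 and 14393031 reads per library were counted. The reads come from the 3′ end of each transcript, so levels are given as TMM-normalized CPM (a gene's share of its library's counts, scaled to a fixed total) with no division by gene length. A gene with 3 counts stood at between 0.173 and 0.368 CPM, and this floor, like the intervals given for shares of counts below, covers counting error only, since PCR copies could not be told from separate molecules.

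Only 2 of the 10 promoters were at hand in the RefSeq windows on GRCm38.p6 (mm10), those of Dsp and Jup. Both are shown for that reason, and they belong to the 2 most abundant genes of the 10, which encode partners of one plaque. The bases before the outermost annotated start are printed 5′ to 3′ on the strand of the gene. Capitals mark the GC box, GGGCGG or its reverse complement CCGCCC. The Dsp stretch of 250 bases is chr13:38151044-38151293 on the plus strand, and the Jup stretch of 201 bases is chr11:100397840-100398040 on the minus strand.
Dsp: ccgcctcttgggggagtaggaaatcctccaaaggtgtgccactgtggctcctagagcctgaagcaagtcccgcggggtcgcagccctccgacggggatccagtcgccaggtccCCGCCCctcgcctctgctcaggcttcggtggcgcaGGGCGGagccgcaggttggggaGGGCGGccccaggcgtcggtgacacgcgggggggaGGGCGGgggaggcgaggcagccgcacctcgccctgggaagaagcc
Jup: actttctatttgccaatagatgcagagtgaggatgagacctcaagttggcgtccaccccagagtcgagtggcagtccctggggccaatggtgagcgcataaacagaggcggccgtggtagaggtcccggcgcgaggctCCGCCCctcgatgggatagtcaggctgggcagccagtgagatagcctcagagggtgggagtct

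The Dsp stretch holds the GC box 4 times and the Jup stretch once. A GC box stood in 35.7% of all 32841 RefSeq promoter windows of 300 bases, searched on both strands. The windows of 300 bases of both genes held no match to AACNNGTT (the Grainyhead-like motif, in 4.21% of all windows), TGANTCA (the AP-1 motif, in 7.81%) or TATAAA (the TATA box, in 13.6%). CAGGTG, the E-box read by SNAI and ZEB repressors, stood in 20.2% of all windows and in that of Dsp, after the printed bases, but not in that of Jup. These matches describe letters, not binding.

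The replicate 3 library of each group stood apart from the other 4 libraries. Pearson's correlation of log2 CPM over genes, whose values are not independent of one another, was 0.955 between these libraries, and every other pair of libraries had one between 0.813 and 0.902. The 11 skeletal and cardiac muscle markers, 9 of which were tested, summed to 318, 338 and 1523 CPM in control replicates 1, 2 and 3 and to 225, 185 and 2125 CPM in the AMD3100 replicates. Myog, a regulator of muscle differentiation, was the most abundant of them, and none was at 0 in every library. The 12 mesenchymal markers, led by Col3a1, summed to 4509, 4442 and 2230 CPM in control and to 4483, 4505 and 1901 CPM in AMD3100. The 16 epithelial markers, led by Cdh1 (E-cadherin), summed to 868, 853 and 465 CPM in control and to 899, 951 and 835 CPM in AMD3100.
Of these lists, 0 genes had an unadjusted edgeR p-value under 0.05 with a fold change over 1.5 between the groups. Both replicate 3 libraries thus had a higher muscle sum and a lower mesenchymal sum, and control replicate 3 the lowest epithelial sum. The collagens Col1a1, Col1a2 and Col3a1 were lower in both replicate 3 libraries, and not every mesenchymal marker followed them. Col3a1 stood at 1403, 1421 and 406 CPM in control and at 1409, 1393 and 415 CPM in AMD3100. Osr1 stood at 184, 172 and 170 CPM in control and at 148, 140 and 161 CPM in AMD3100. Cdh1 alone had 507 of the 835 CPM of epithelial markers in AMD3100 replicate 3. The geometric mean of the 15 epithelial markers tested was 21.2 CPM there, against 37.2 and 33.2 CPM in AMD3100 replicates 1 and 2. In whole glands, fewer cells of a type and less RNA per cell cannot be told apart.

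**Figure D1:**
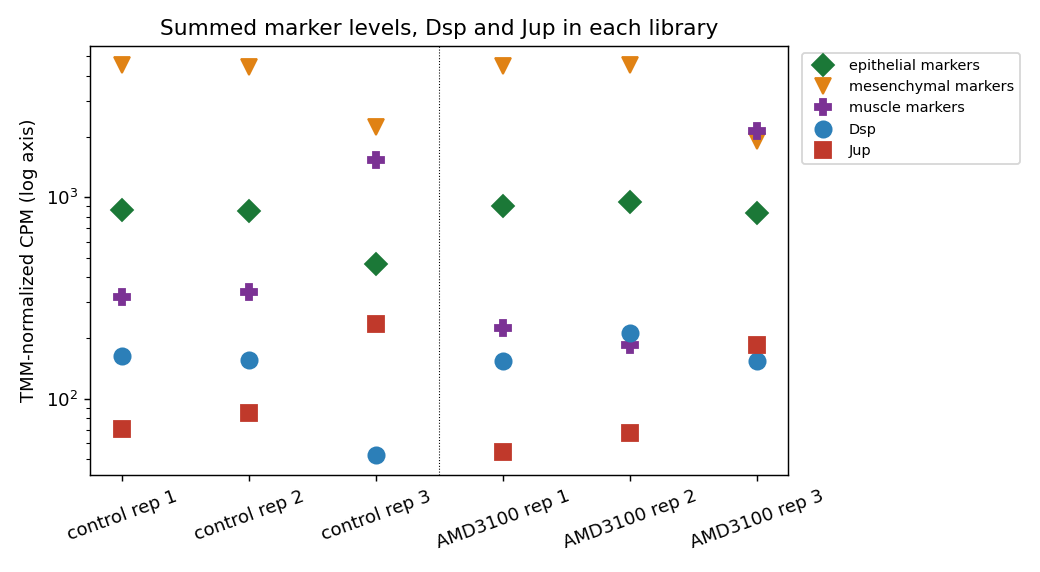
Summed TMM-normalized CPM of the epithelial, mesenchymal and muscle markers, and the CPM of Dsp and Jup, in each of the 6 libraries on a log axis, with control on the left and AMD3100 on the right of the dotted line. In both groups replicate 3 has the highest muscle sum and the highest Jup level, and the lowest mesenchymal sum.

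The 10 genes spanned a wide range of levels. By mean CPM over the 6 libraries the order was Dsp (148), Jup (116), Pkp3 (65.5), Dsg2 (41.1), Evpl (16.1), Ppl (13.7), Pkp1 (13.4), Dsc2 (5.72), Upk1b (3.48) and Pkp2 (2.25). These are reads at 3′ ends, and how completely each 3′ end is annotated was not tested. Jup stood above Pkp3, Dsg2 above Evpl, and Pkp1 above Dsc2 in 6 of 6 libraries. Neighbours that changed places among libraries were Dsp and Jup (in that order in 4 of 6), Evpl and Ppl (4 of 6), Ppl and Pkp1 (3 of 6) and Dsc2 and Upk1b (4 of 6). Pkp3 was above Dsg2 and Upk1b above Pkp2 in 5 of 6.

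**Figure D2:**
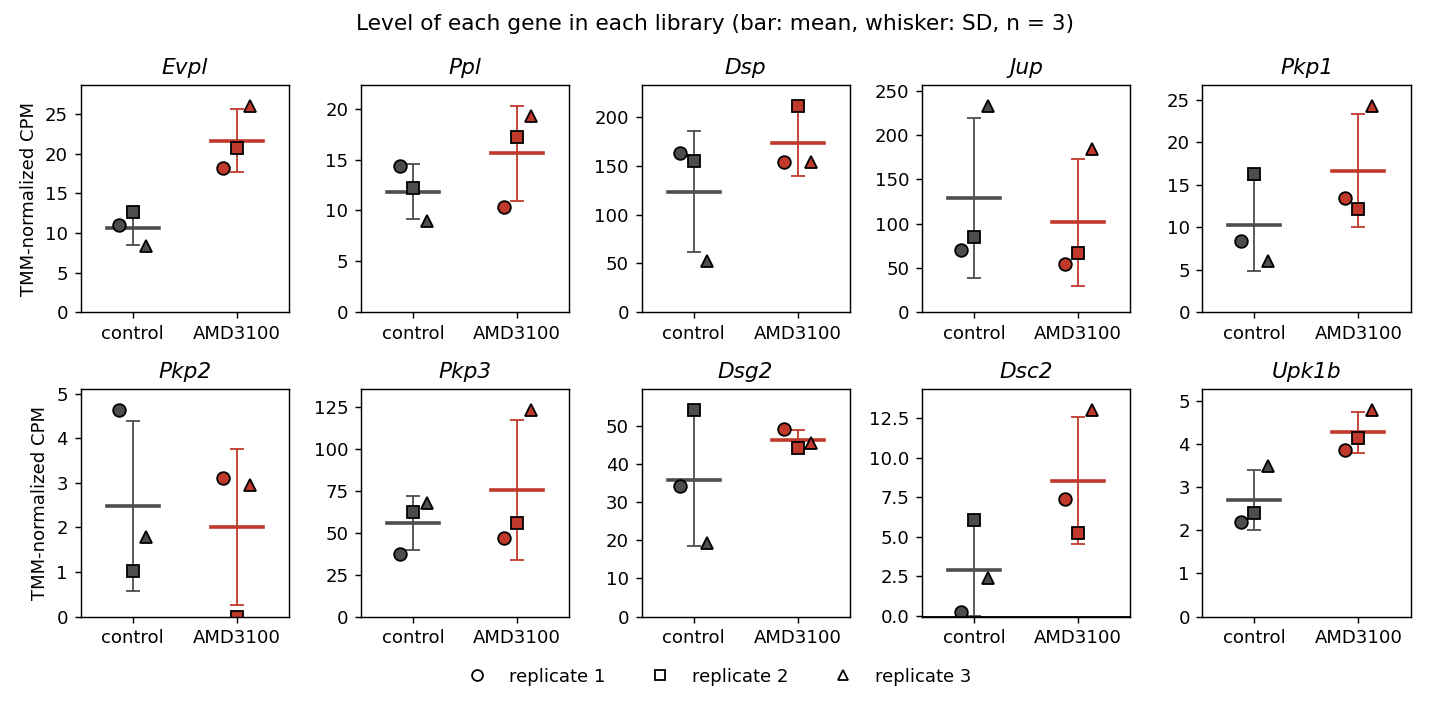
TMM-normalized CPM of each of the 10 genes in each library (points, with the shape giving the replicate), with the group mean (bar) and SD (whisker, n = 3). Evpl and Upk1b have all AMD3100 points above all control points, and the other 8 genes have overlapping groups.

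Evpl encodes envoplakin and lies on chromosome 11 from 116220559 to 116238165 (RefSeq, mm10). Its reads numbered 126, 173 and 84 in control replicates 1, 2 and 3 and 316, 224 and 212 in AMD3100, which is 11.03, 12.6 and 8.38 CPM against 18.2, 20.6 and 26.0 CPM. Every AMD3100 library was above every control library, and Evpl was higher in 3 of 3 same-numbered pairs. The fitted log2 fold change was 1.02 (standard error 0.36), from 10.7 ± 2.14 to 21.6 ± 4.01 CPM (SD, n = 3 each). Evpl was the 1 gene of the 10 that passed the call rule (an unadjusted edgeR p-value under 0.05 and a fold change over 1.5), which 0.397% of all genes passed upwards and 1.68% in either direction. This contrast chose the gene, so nothing is read from the count. It fell short of that rule without control replicate 3 (log2 fold change 0.88), without AMD3100 replicate 3 (0.85) and in replicates 1 and 2 alone, where the log2 fold change was 0.71. It also did so when libraries were scaled by the epithelial markers (0.93, on a scale where the median of all genes was -0.21).

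Ppl encodes periplakin, with which envoplakin forms heterodimers, and lies on chromosome 16 from 5086291 to 5132481. Its levels were 14.4, 12.2 and 8.98 CPM in control and 10.4, 17.2 and 19.3 CPM in AMD3100. The groups overlapped, with AMD3100 replicate 1 among the control values, and the log2 fold change was 0.40 (standard error 0.41). In replicates 1 and 2 alone it was 0.05. A ratio of counts within a library does not depend on the scaling between libraries. The ratio of Evpl to Ppl counts was 0.768, 1.04 and 0.933 in control and 1.76, 1.20 and 1.35 in AMD3100. Ppl reads thus outnumbered or nearly matched Evpl reads in the control libraries, and Evpl reads led in all 3 AMD3100 libraries. These are counts of 3′ reads, and which of the transcripts was more abundant was not tested. This pair was picked after its values were seen, and Evpl had itself been chosen for its change. Of the 45 ratios that the 10 genes allow, 2 had groups that did not overlap, this one and that of Pkp1 to Dsc2. Nothing is read from that count, since the levels of single genes were all higher in AMD3100 for 3.28% and all lower for 4.17% of all genes. The latter ratio was 32.0, 2.69 and 2.54 in control, where the first value has only 3 Dsc2 counts below it, and 1.83, 2.32 and 1.87 in AMD3100, so that the groups were separated by a narrow margin with or without control replicate 1.

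**Figure D3:**
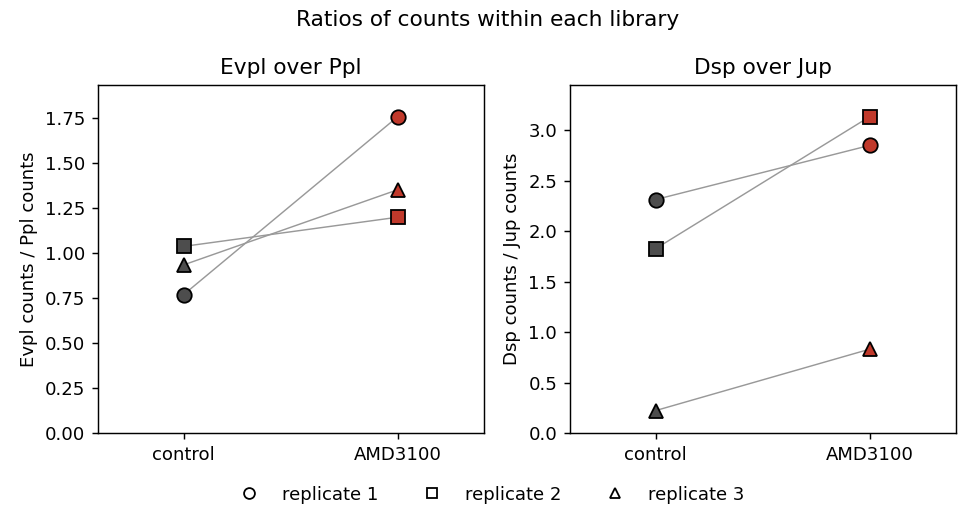
Ratio of Evpl to Ppl counts and of Dsp to Jup counts in each library, with lines joining libraries of the same replicate number. The AMD3100 value is above the control value of the same number in every pair, and for Dsp over Jup the replicate 3 libraries lie below all others.

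Dsp encodes desmoplakin and lies on chromosome 13 from 38151294 to 38198577. It stood at 163, 155 and 52.4 CPM in control and at 154, 211 and 154 CPM in AMD3100. Control replicate 3, the library with the lowest epithelial sum, was the low one, and the other 5 libraries lay within a narrower span. The log2 fold change was 0.49 (standard error 0.43), and 0.19 in replicates 1 and 2 alone. With the replicate number as a block, Dsp passed the call rule (log2 fold change 0.63, standard error 0.26), and 2 of the 10 genes were then called, Evpl and Dsp. Calls rose over all genes too with the block, to 4.39% in either direction and 1.49% upwards. Without control replicate 3 the Dsp value was 0.13.

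Jup encodes plakoglobin, which binds the tails of desmosomal cadherins and can also bind E-cadherin. It lies on chromosome 11 from 100368856 to 100397839. Its levels were 70.4, 84.6 and 233 CPM in control and 54.0, 67.4 and 184 CPM in AMD3100. The replicate 3 libraries were the 2 highest, with a mean of 209 CPM against 69.1 CPM over replicates 1 and 2, while Dsp had 103 and 171 CPM. The muscle sum, given above, was also highest in the replicate 3 libraries. Between these, the muscle sum was higher in AMD3100 and Jup was higher in control. The part of muscle in the Jup level was not tested. Within each pair of the same number Jup was lower in AMD3100 (3 of 3), by a log2 fold change of -0.35. Its standard error was 0.59 without the replicate block and 0.14 with it. The value turned to 0.41 without control replicate 3 and reached -1.11 without AMD3100 replicate 3, and was -0.36 in replicates 1 and 2 alone. The ratio of Dsp to Jup counts was 2.31, 1.83 and 0.224 in control and 2.85, 3.14 and 0.833 in AMD3100. It was higher in AMD3100 in 3 of 3 pairs, although the groups overlapped.

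Plakophilins bind desmoplakin and gather desmosomal proteins at the plaque. Pkp3, on chromosome 7 from 141078229 to 141090511, was the main one, with between 73.7% (95% Wilson interval 71.1 to 76.3) and 89.6% (87.2 to 91.6) of the Pkp1, Pkp2 and Pkp3 counts of a library. Its levels were 37.4, 62.2 and 67.7 CPM in control and 46.6, 55.9 and 123 CPM in AMD3100. Only AMD3100 replicate 3 lay outside the control range, and the log2 fold change of 0.43 (standard error 0.43) was -0.14 without that library and 0.03 in replicates 1 and 2 alone.
Pkp1, on chromosome 1 from 135871394 to 135919207, stood at 8.41, 16.2 and 6.08 CPM in control and at 13.5, 12.2 and 24.3 CPM in AMD3100. Its log2 fold change was 0.70 (standard error 0.50), and 0.05 in replicates 1 and 2 alone. It was 1.20 without control replicate 2 and 0.31 without AMD3100 replicate 3.
Pkp2, on chromosome 16 from 16213345 to 16272712, was read 53, 14 and 18 times in control and 54, 0 and 24 times in AMD3100. With so few reads its log2 fold change of -0.30 had a standard error of 1.44. It was -1.07 with the replicate block and turned to 0.52 without control replicate 1 and to 0.29 without AMD3100 replicate 2. No difference was detectable at this depth for Pkp2, with a 95% interval of the log2 fold change from -3.55 to 2.96.

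Dsg2 and Dsc2, both on chromosome 18, encode the desmoglein and desmocollin that simple epithelia use. Dsg2 stood at 34.1, 54.2 and 19.3 CPM in control and at 49.1, 44.2 and 45.4 CPM in AMD3100. The 3 AMD3100 values lay close together inside the control range, and the log2 fold change was 0.36 (standard error 0.39), or 0.07 in replicates 1 and 2 alone. It was 0.79 without control replicate 2 and 0.07 without control replicate 3. Dsc2 reads numbered 3, 83 and 24 in control and 128, 57 and 106 in AMD3100, or 0.263, 6.05 and 2.39 CPM against 7.37, 5.25 and 13.02 CPM. Its control libraries differed widely, and control replicate 1 was at the floor of 3 counts. Its log2 fold change, 1.55, was the highest of the 10, with a standard error of 0.95 and overlapping groups. It was 0.99 in replicates 1 and 2 alone and 2.68 without control replicate 2, a setting in which Dsc2 was called together with Evpl, as were 68 of 14209 genes upwards.
Together Dsg2 and Dsc2 took between 78.1% (95% Wilson interval 74.3 to 81.5) and 100% (99.3 to 100) of all desmosomal cadherin counts in a library. The low share was that of control replicate 1, where Dsg3 had 53 and Dsc3 57 counts. Dsg3 and Dsc3 are the cadherins of basal stratified epithelium. Dsg1b, Dsg1c and Dsg4 had 0 counts in every library, which allows up to 3 counts in each. Dsc1 had 1 count in all 6 libraries together.

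Upk1b lies on chromosome 16 from 38773182 to 38800203. Reads were few, at 25, 33 and 35 in control and 67, 45 and 39 in AMD3100, or 2.19, 2.40 and 3.49 CPM against 3.86, 4.15 and 4.79 CPM. The groups did not overlap, by a narrow margin, and Upk1b was higher in 3 of 3 pairs. The log2 fold change was 0.66 (standard error 0.72), 0.79 in replicates 1 and 2 alone and 0.35 when libraries were scaled by the epithelial markers. Evpl and Upk1b were the 2 genes of the 10 with all AMD3100 libraries above all control libraries, an ordering that 3.28% of all genes showed. Both had been chosen on these values.
Of the other uroplakins, Upk3bl (mean 19.4 CPM), Upk3a (8.27) and Upk2 (1.23) were tested and 0 were called. Upk3a had 226 counts in control replicate 1 and between 41 and 84 in the other 5 libraries. Upk3b, also a mesothelial marker, had 0 counts in every library, and Upk1a had counts in 2 libraries.

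Of the 10 genes, 4 had a fold change over 1.5 upwards (Evpl, Pkp1, Dsc2 and Upk1b), as had 10.2% of all genes, and 8 had a log2 fold change above 0, as had 52.2% of all genes, with Jup and Pkp2 below 0. The median over the 10 was 0.46, against 0.02 over all genes tested. By same-numbered pairs the median log2 ratio of the 10 was 0.42 for replicate 1, -0.17 for replicate 2 and 1.16 for replicate 3. It was highest in the replicate 3 pair, and the median of the fitted values was 0.06 in replicates 1 and 2 alone. The summed level of the 10 was 346, 406 and 404 CPM in control and 360, 438 and 597 CPM in AMD3100.

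The epithelial markers differed among these libraries too. The geometric mean of the 15 epithelial markers tested was 35.0, 33.9 and 15.4 CPM in control and 37.2, 33.2 and 21.2 CPM in AMD3100, a ratio of AMD3100 to control of 1.13. Set against this mean within each library, Evpl stood at -1.60, -1.37 and -0.80 log2 units in control and at -0.99, -0.65 and 0.33 in AMD3100. Evpl was higher in AMD3100 by 0.82 on this log2 scale, though control replicate 3 then lay between AMD3100 replicates 1 and 2. Upk1b was higher by 0.42 on the same scale, and Jup lower, with a difference of -0.52. For all 10 genes the groups overlapped on this scale.

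Markers of other epithelia were read beside these values. Of 11 genes of keratinized or oral surface epithelium, 8 were tested and 0 were called. They summed to 301, 348 and 113 CPM in control and to 398, 274 and 327 CPM in AMD3100, led by Krt4 with a mean of 157 CPM. Control replicate 3 was lowest in this list, as it was for Evpl and Dsp, and the part of surface epithelium in these levels was not tested. Other keratins of this list are named after their values were seen. Krt6a, a keratin of oral and stressed epithelium, was next in abundance, with a mean of 113 CPM and a log2 fold change of 0.66 (standard error 0.38). Krt1 and Krt10, the keratins of suprabasal keratinizing cells, averaged 5.47 and 9.86 CPM and stood at -1.48 (standard error 0.98) and -0.77 (standard error 0.48), and Krtdap averaged 4.39 CPM and stood at 0.91 (standard error 0.76). Of the defining genes of a cornified layer, Ivl (involucrin) had counts in 2 libraries, with at most 5, and Lor (loricrin) had at most 19 in any library.

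Related genes from lists set beside the 10 were tested in the same edgeR fit, with 45 of 60 passing the filter. Unadjusted p under 0.05 with a fold change over 1.5 was reached by 1 of the 45 upwards (Krt7) and 1 downwards (Snai1), beside 0.397% and 1.28% of all genes. After Benjamini-Hochberg adjustment 0 of the 45 passed, as did 0 of all genes (edgeR, with 228 at an unadjusted p under 0.05, all of which also had a fold change over 1.5), and DESeq2 gave 5 among all genes. The median log2 fold change of the 45 was 0.03.

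**Figure D4:**
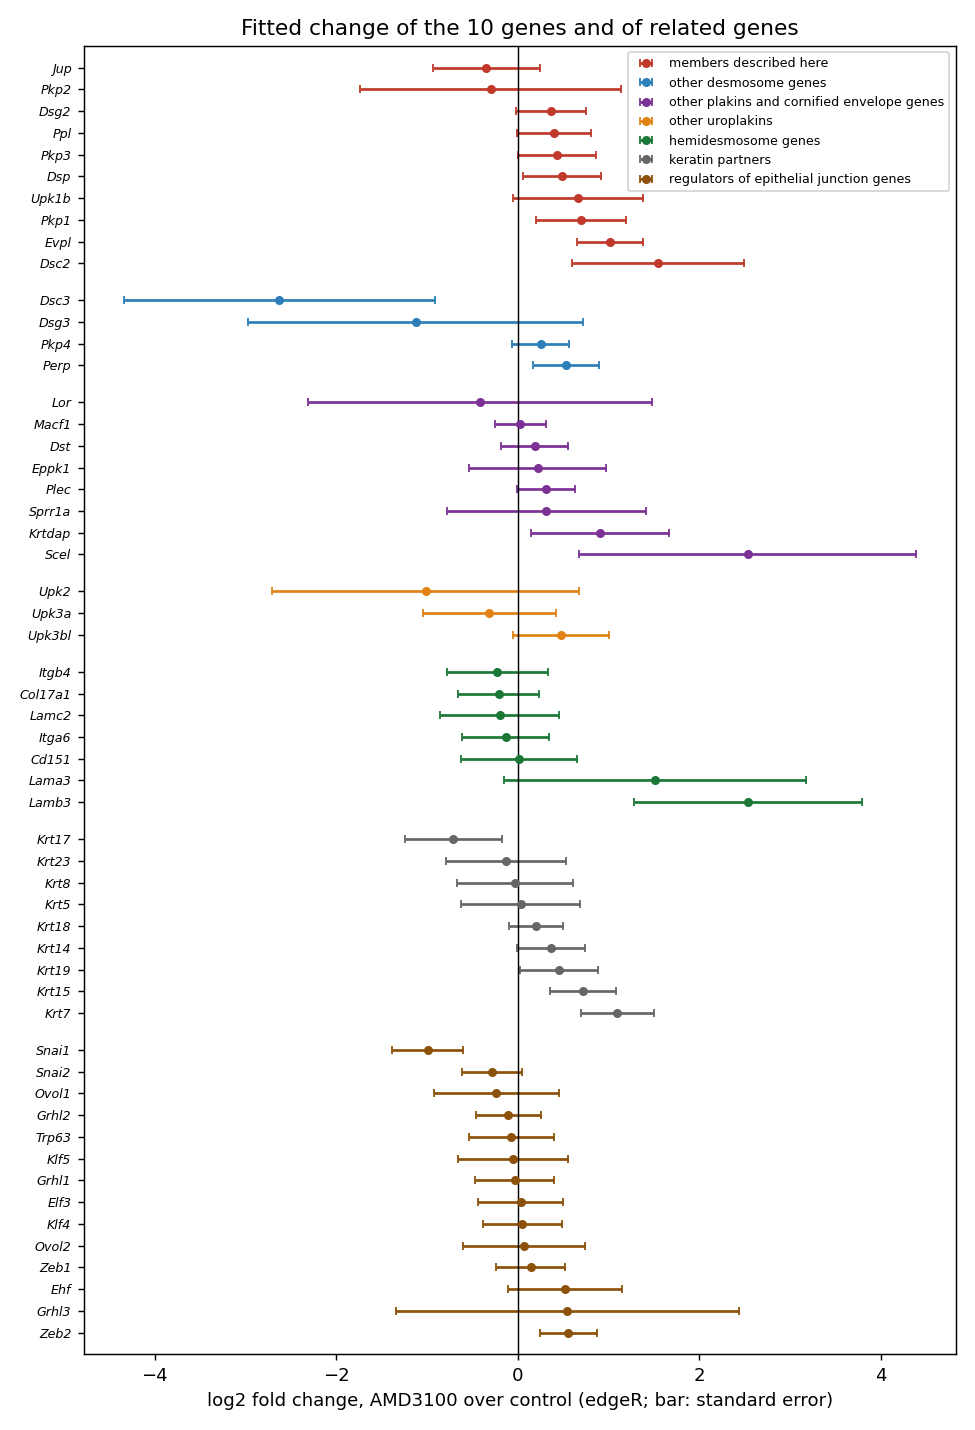
Fitted log2 fold change of AMD3100 over control (points) with its standard error (bars) for the 10 genes, in red at the top, and for 45 related genes tested, grouped by list. Evpl and Krt7 lie near 1 and Snai1 near -1 with short bars, and genes with few reads such as Dsc3 and Scel have long bars.

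Snai1 encodes SNAIL, a zinc-finger repressor of E-cadherin and other junction genes, and lay among 14 transcriptional regulators tested. Snai1 reads numbered 437, 549 and 669 in control and 276, 249 and 278 in AMD3100, or 38.3, 40.0 and 66.7 CPM against 15.9, 23.0 and 34.1 CPM. Every AMD3100 library lay below every control library, an ordering that 4.17% of all genes showed. Snai1 was lower by a log2 fold change of -0.99, with 0.39 as its standard error (edgeR unadjusted p = 0.0309, Benjamini-Hochberg adjusted p = 0.999978). The replicate block gave -1.01 (edgeR unadjusted p = 0.00102, Benjamini-Hochberg adjusted p = 0.254), and over the alternatives the adjusted p-value lay between 0.254 and 1. Without control replicate 3 the log2 fold change was -0.68 and Snai1 was not called, nor was it without AMD3100 replicate 1 (-0.76) or 2 (-0.95), by the version of the study's procedure or when scaled by the epithelial markers. Snai1 was also not called when a fold change of at least 2 was required.
The 13 other regulators were not called. The most abundant were Klf5 (123 CPM, log2 fold change -0.05), Ehf (43.0 CPM, 0.52) and Zeb2 (38.7 CPM, 0.56). Beside Snai1 and Zeb2, the list held the repressors Zeb1, at 0.14 (standard error 0.38), and Snai2, at -0.28 (standard error 0.33). Both are named after their values were seen. Grhl2, of a family that regulates epithelial junction genes and also named after its values were seen, stood at -0.10 (standard error 0.36). Ehf was called with the replicate block (log2 fold change 0.72, edgeR adjusted p = 0.727).

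Keratins are the filaments to which desmosomes attach. Of the 9 listed, Krt15 (mean 1299 CPM), Krt18 (79.8) and Krt14 (77.1) were the most abundant, with log2 fold changes of 0.72, 0.20 and 0.37. Krt7, a keratin of ducts, was the 1 keratin called. It had 9.81, 10.5 and 8.58 CPM in control and 29.1, 19.4 and 13.1 CPM in AMD3100 (log2 fold change 1.098 with 0.41 as its standard error). Its edgeR unadjusted p = 0.0244 became an adjusted p = 0.999978, and over the alternatives the adjusted p-value lay between 0.634 and 1. The Krt7 values of these libraries were known when the list was drawn up, so its call is not independent evidence. It was not called without control replicate 1 or 3 or without AMD3100 replicate 1, where the log2 fold change was 0.76, or when scaled by the epithelial markers (0.80). Krt15 was called in addition with the replicate block (log2 fold change 0.62, edgeR adjusted p = 0.703).

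Hemidesmosomes, which fix basal cells to the basement membrane, share the keratin link but not the cadherins. Of the 7 genes, 0 were called by edgeR, with Itga6 (81.0 CPM), Cd151 (59.5) and Itgb4 (16.6) at log2 fold changes of -0.13, 0.02 and -0.23. Lamb3, the laminin β3 chain, named after its values were seen, was read 0, 17 and 13 times in control and 119, 41 and 34 times in AMD3100. Its groups did not overlap, but the fitted log2 fold change of 2.53, with 1.26 as its standard error, did not pass (edgeR, unadjusted p = 0.0752). Lamb3 was called by DESeq2 (log2 fold change 2.55) and by limma-voom after quantile normalization (3.20), and its adjusted p-value over the alternatives that tested it lay between 0.790 and 1.
Among the other plakins and envelope genes, 8 of the 15 in the files were tested and 0 were called by edgeR. Scel, which encodes the envelope precursor sciellin, is named after its values were seen. It was read 0, 0 and 16 times in control and 71, 5 and 38 times in AMD3100. Scel was called only without control replicate 3, where both remaining control libraries were at 0. Tgm1, of the same list and also named after its values were seen, went the other way and did not pass the filter. It was read 30, 22 and 9 times in control and 11, 3 and 4 times in AMD3100. In CPM every AMD3100 library lay below every control library, an ordering that 4.17% of all genes tested showed. Macf1, Plec and Dst, the large cytolinkers, had log2 fold changes of 0.03, 0.32 and 0.19, with standard errors of 0.28 to 0.37.
Among the other desmosome genes, 4 of 10 were tested and 0 were called by edgeR. Pkp4, which is found at both desmosomes and adherens junctions, averaged 129 CPM and changed by 0.25 on the log2 scale (standard error 0.31), which did not pass. Perp, a membrane protein needed for desmosome assembly, stood at 47.1, 76.7 and 45.3 CPM in control and at 66.6, 61.7 and 116 CPM in AMD3100. Its groups overlapped, with a log2 fold change of 0.53 (standard error 0.36). Dsg3 and Dsc3, with few reads, lay below 0 at -1.12 (standard error 1.85) and -2.62 (standard error 1.72), and the median of the 4 was -0.44.

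The genes with the pattern most like that of Evpl over the 6 libraries, by Pearson correlation of log2 CPM among 8245 genes with a mean of at least 10 CPM, were Chd2 (0.977), Cpe (0.974), Smarca4 (0.974), Bcr (0.972) and Slc39a10 (0.971). For the mean standardized profile of the 10 genes they were Prkar1b (0.9752), Perp (0.963), Nifk (0.959), Bcr (0.952) and Ctr9 (0.945). The points are 6 libraries that share their scaling, and 19 genes had a correlation over 0.9 with Evpl and 13 with the mean profile. Within the 10, the correlation over the 6 libraries was highest for Dsp and Dsg2 (0.861) and lowest for Dsp and Jup (-0.74), and that of Evpl with Upk1b was 0.692. Evpl and Upk1b had both been singled out for their difference between the groups in these libraries, so nothing is read from their correlation.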

How the data were processed

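For 6 QuantSeq 3′ mRNA libraries, 3 control and 3 AMD3100, raw counts by gene symbol were deposited by the authors, with no normalization. The submitters' processing notes name Bowtie2, edgeR and mm10, and versions and the gene annotation are not given in the sources used here. No molecular identifiers are mentioned, so PCR copies count as reads. Of 23282 lines per library, 22 that repeated both symbol and counts were left out, and 18307 of the remaining 23260 had at least 1 count. Rn45s, the ribosomal RNA precursor, took from 16.2% (AMD3100 replicate 1) to 32.5% (AMD3100 replicate 2) of the counts.

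Counts were fitted with edgeR 4.0.16 (R 4.3.3), with TMM normalization, filterByExpr, glmQLFit, glmQLFTest and Benjamini-Hochberg adjustment over 13610 genes, and group as the only term. A gene was called with an unadjusted p under 0.05 and a fold change over 1.5, thresholds given in the study's text, whose figure legend names a fold change of at least 2 instead. Standard errors come from the coefficient and its F. The biological coefficient of variation was 0.579. For one gene, an exact permutation test of 3 against 3 cannot go below p = 0.1. Log2 CPM used a prior count of 2, and ratios to the epithelial mean an offset of 0.5 CPM.

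Replicate numbers are shared by the labels of both groups. Deviations from the group means correlated across genes at 0.185, 0.171 and 0.584 for control and AMD3100 libraries of number 1, 2 and 3. Control replicate 2 with AMD3100 replicate 1 gave 0.198, and control replicate 1 with AMD3100 replicate 2 gave 0.146. Only the replicate 3 pair was therefore set apart by these values. The numbers were taken as pairs from the labels, and for replicates 1 and 2 the pairing rests on the labels alone.

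The 10 genes, the related lists and the marker lists were chosen with earlier results of these data known. Named were the 10 genes, the 3 most abundant and all called genes of each related list, the leading marker of each list and the 5 genes of most similar pattern, and a few others marked as named after their values were seen. Genes with few or 0 reads (Dsg1a, Dsg1b, Dsg1c, Dsg4, Dsc1, Dsc3, Upk1a, Upk3b, Ivl and Lor) were also named, outside this rule. Of the 60 related genes in the files, 45 were tested. Flg, Muc16 and Emr1 were not analysed here. Of the marker lists, those for endothelium (6 genes tested, led by Kdr), neurons and glia (7, Tubb3), blood and macrophages (8, Hba-a1) and mesothelium (1, Msln) had 0 called genes, and their summed ratios of AMD3100 to control were 0.871, 1.03, 0.807 and 1.33. The alternatives comprised upper quartile scaling, DESeq2 1.42.0, quantile normalization with limma-voom (limma 3.58.1) and, separately, a version of the study's procedure, both a looser filter (none) and a stricter one (10 counts or more per library), the replicate block, Rn45s left out, scaling by the epithelial markers, each replicate left out, replicates 1 and 2 only, and a fold change of at least 2.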

Additional observations from a re-analysis of the deposited data

How the results depend on the processing

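The median log2 fold change of the 10 genes stayed above 0 under every alternative run, from 0.06 in replicates 1 and 2 only to 0.65 without AMD3100 replicate 1, and was between 0.34 and 0.65 with each replicate left out. The fitted change of Evpl, Ppl, Dsp, Pkp1, Dsg2, Dsc2 and Upk1b stayed above 0 in every alternative that gave a value (Dsc2 and Pkp2 had none with at least 10 counts in every library), while those of Jup, Pkp2 and Pkp3 changed sign when a library was left out. Of the 10 genes, 1 was called in the reported fit, 2 with the replicate block, 0 when scaled by the epithelial markers, 0 in replicates 1 and 2 only, and between 0 and 2 with each replicate left out. Of the related genes, 2 (Krt7 and Snai1) were called in the reported fit, 3 each by DESeq2 and by limma-voom after quantile normalization (Lamb3 added), 1 by the version of the study's procedure, 4 with the replicate block, 0 when scaled by the epithelial markers, 1 at a fold change of at least 2, and between 0 and 2 with each replicate left out. These were other genes, Krt17 and Scel, without control replicate 3, and Krt15 with Krt7 without AMD3100 replicate 2. Among all genes, 228 were called, against 429 by the version of the study's procedure, 598 with the replicate block, 132 when scaled by the epithelial markers, 613 in replicates 1 and 2 only, and between 163 and 547 with each replicate left out (547 without control replicate 3 and 451 without AMD3100 replicate 3). Genes with an adjusted p-value under 0.05 numbered 0 with edgeR, 5 with DESeq2 and 3 with the replicate block. Scaling by the epithelial markers moved the median of all genes to -0.21, and 9 of its 132 calls were upwards, against 54 of 228 in the reported fit and 172 of 429 by the version of the study's procedure. The block changed no other call among the 10 genes and the related genes than those given with their values. The causes of these shifts were not tested. Pkp2, Dsc2 and Upk1b had the lowest mean levels of the 10 genes, with fewer than 130 counts in any library.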
